A study of Homo sapiens with 6 samples.

Results

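The enzymes that build purine nucleotides, pyrimidine nucleotides and the folate-bound carbon units they need were followed at the transcript level in PANC1, a human cell line from a ductal carcinoma of the pancreas, after 48 h with gemcitabine. The 37 genes were chosen by their role in these pathways, from the 20461 genes of the RNA-seq table, and all 37 were found there. RNA-seq was done on 2 libraries of cells given vehicle (0.1% DMSO) and 2 libraries of cells given 50 nM gemcitabine, all grown for 24 h before treatment. DNaseI-seq, which marks open chromatin, was done on 1 vehicle and 1 gemcitabine library. All samples are the same cell line with no other agent or allele. The comparison asks which of these genes change expression in response to the drug.

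Gemcitabine is a cytidine analogue that cells phosphorylate and build into DNA, and its diphosphate inhibits ribonucleotide reductase, the enzyme that turns ribonucleotides into deoxyribonucleotides. Cells obtain their nucleotides in several ways. In de novo purine synthesis, a ring is assembled step by step on phosphoribosyl pyrophosphate (PRPP) to give inosine monophosphate (IMP), from which AMP and GMP are made. In de novo pyrimidine synthesis, orotate is formed first and then joined to PRPP to give uridine monophosphate. Salvage enzymes reuse free bases and nucleosides instead, and thymidylate is made from deoxyuridylate with a carbon unit carried by folate.

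The vehicle libraries held 15153593 and 15766237 fragments and the gemcitabine libraries 13194533 and 13275457. A count of 3 fragments therefore stood for 0.190 to 0.227 CPM, the count divided by the library size in units of 1e6 fragments. The 37 genes had between 114 and 6730 fragments in any library, so all of them passed the minimum of 10 fragments over the 4 libraries. KRT7, KRT8, KRT18 and VIM, fixed as markers of PANC1, had at least 5963 fragments in every library. KRT19 and EPCAM, also fixed as epithelial markers, were low, with 45 to 94 and 45 to 80 fragments. Of the markers of other cells, PTPRC had 2 to 9 fragments, CDH5 0 to 3 and CPA1 0 to 1, while CD3E, PRSS1, INS and GCG were at 0 in all 4 libraries.

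The stretches of DNA that bear on the genes below are shown here. The E-box, CACGTG, is bound by MYC and related factors, and the same letters read on both strands. It was present in the 300-base promoter windows (250 bases before and 50 after a RefSeq start) of 7 of the 34 genes with a window, or 20.6%, against 12.2% of the 11460 tested genes with a window. The genes called lower after gemcitabine (criteria given below) that had an E-box were PPAT, DHODH and MTHFD1L. These 3 sites and those of ATIC and MTHFD1, which fell without meeting the fold limit, are printed because they sit at starts of the genes on which the results turn, with the E-box in capitals.
PPAT: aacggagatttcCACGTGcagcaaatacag
DHODH: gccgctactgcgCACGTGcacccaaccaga
MTHFD1L: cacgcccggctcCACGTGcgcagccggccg
ATIC, upstream: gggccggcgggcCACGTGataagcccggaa
ATIC, downstream: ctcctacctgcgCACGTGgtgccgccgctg
MTHFD1: ccagtccctaagCACGTGggttgggttgtc
Each of these matched 1 place on its chromosome in hg19. They lay at chr4:57301946-57301975 (minus strand), chr16:72042472-72042501, chr6:151187456-151187485, chr2:216176724-216176753, chr2:216176799-216176828 and chr14:64855044-64855073 (plus strand). The PPAT site is shared: on the other strand it begins 41 bases after a RefSeq start of PAICS, which is transcribed away from PPAT. The remaining E-box was that of NME1.

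The E2F core is bound by factors that drive genes of S phase. It was searched on both strands with TTCCCGC as the main form, with TTCGCGC as a further form, and also with TTGCCGC as well as with TTGGCGC as the last. It was in the windows of 8 of the 34 genes (23.5%), close to the 24.1% of all tested genes. Among them were TK1 and TYMS, which rose after gemcitabine, and DUT, and these sites are shown because they stand at the genes of thymidine supply, with the main form, read on its other strand, in capitals.
TK1: aagcggtcggcGCGGGAAccaggggctta
TYMS: gcgggacggccGCGGGAAaaggcgcgcgg
DUT: gggcggggctgGCGGGAAatttcggtttt
The matches began at position -12 from a RefSeq start for TK1, -39 for TYMS and -42 for DUT. In hg19 the stretches lay at chr17:76183128-76183156 (minus strand), chr18:657603-657631 and chr15:48624341-48624369 (plus strand). The CCAAT box, CCAAT on either strand, was in the windows of 44.1% of the 34 genes, against 43.0% of all tested genes with a window. It was found for 5 of the 7 called genes (GART, CAD, DHODH, UCK2 and MTHFD1L) and for 1 of the 3 that rose, TK1. None of the 3 genes that rose had an E-box, and 1 of the 7 called genes, GART, had an E2F core. RefSeq windows were taken from GRCh38.p14, and a match is a description of letters, not evidence of a bound factor.

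Most of these genes had lower transcript counts after gemcitabine, with different values along the different routes. For a call, 4 criteria had to be met: an adjusted p under 0.05 in the edgeR quasi-likelihood test, a change of more than 1.5-fold, 0.1 FPKM or more on average in either condition, and condition means that differ by 1 FPKM or more. FPKM is the fragment count per kilobase of transcript, scaled to library size. By these criteria 7 of the 37 genes were lower and 0 were higher, where 4.43% and 5.69% of all 14854 tested genes were called lower and higher. With the adjusted p alone, 20 of the 37 fell and 3 rose, and 14 did not pass, against 20% of all genes that fell and 18.5% that rose. At an unadjusted p under 0.05 the counts were 22 lower and 3 higher, where 7014 of the 14854 genes had such a p in either direction. DESeq2 called 7 lower and 0 higher, where it called 621 of the 14854 genes lower and 721 higher. By its adjusted p 18 fell and 3 rose, with CTPS2 (adjusted p = 0.118) and MTHFD1 (adjusted p = 0.0561) lost. The shares over all genes by the DESeq2 adjusted p alone were not counted. The log2 fold change was below 0 for 30 of the 37, against 49.3% of all genes, and the median of the 37 was -0.23, against 0.0068 for all genes. In 29 genes both gemcitabine libraries lay below both vehicle libraries, in 5 both lay above and in 3 the groups overlapped. Over all genes these shares were 34.7% for lower and 35% for higher. As these are bulk cultures, fewer cells that carry a transcript and less of it in each cell cannot be told apart.

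**Figure D1:**
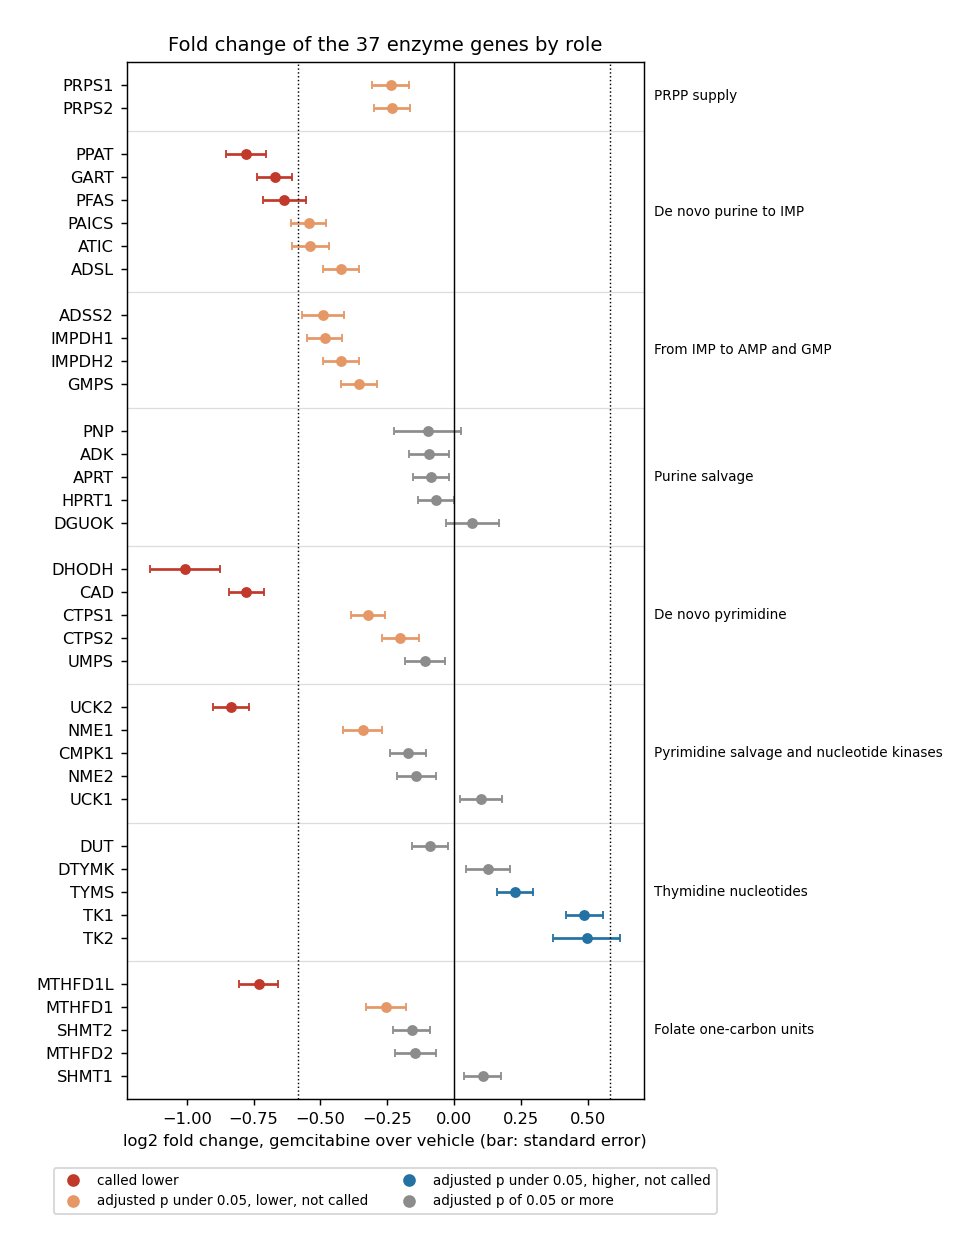
Log2 fold change (gemcitabine over vehicle, x axis) with its standard error for each of the 37 genes, grouped by role, from edgeR with 2 libraries a condition. Dotted lines mark a fold of 1.5 in each direction. The 6 genes of purine synthesis to IMP all sit left of 0, the 5 of purine salvage lie close to it, and TYMS, TK1 and TK2 sit to the right.

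**Figure D2:**
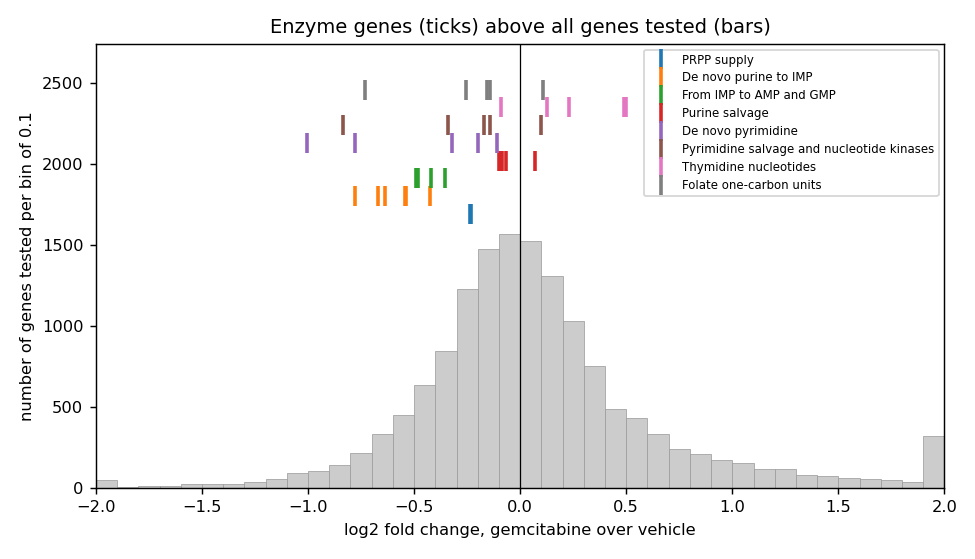
Number of tested genes in each bin of 0.1 of the log2 fold change (bars, with genes beyond the axis placed in the outer bins) and the 37 genes as ticks above, 1 row a role. The bars centre near 0, with a median of 0.0068, and most ticks lie to the left.

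In the pathway to IMP, the transcript counts of each gene fell. All 6 of its genes passed the adjusted p in the lower direction, 3 were called, and the 6 fold changes ran from -0.78 to -0.42 with a median of -0.59. PPAT encodes amidophosphoribosyltransferase, the enzyme of the committed step. It had 69.5 and 72.4 CPM (after TMM scaling) in the vehicle libraries and 41.4 and 41.5 CPM in the gemcitabine libraries. The 2 gemcitabine values were nearly equal and far below both vehicle values, a log2 fold change of -0.78 ± 0.075 (SE, adjusted p = 2.35e-06). GART, a single protein with 3 catalytic activities of the pathway, had 201.6 and 201.3 CPM with vehicle and 123.6 and 129.5 CPM with gemcitabine. This was a log2 fold change of -0.67 ± 0.066 (SE, adjusted p = 2.85e-06), and the groups did not overlap. PFAS, which adds an amide nitrogen to the growing ring, had 160.8 and 157.7 CPM with vehicle and 93.2 and 111.7 CPM with gemcitabine. Its 2 gemcitabine libraries were further apart than those of PPAT and GART, and the log2 fold change was -0.64 ± 0.081 (SE, adjusted p = 2.63e-05). Without gemcitabine replicate 1 the value for PFAS was -0.51 and it was no longer called. When libraries were scaled by their totals instead, GART (-0.56) and PFAS (-0.53) both fell short of the fold limit.

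PAICS, which carries out 2 consecutive steps in the middle of the pathway, was the most abundant by count of these 6 genes. It had 452.6 and 441.9 CPM with vehicle against 302.1 and 311.7 CPM with gemcitabine. Its log2 fold change of -0.54 ± 0.065 (SE, adjusted p = 1.56e-05) passed the test but not the fold of 1.5. Cuffdiff marked PAICS as a failed gene in all 4 libraries, so its FPKM is less certain than its count. ATIC, which closes the ring to IMP, had 258.4 and 267.3 CPM against 171.8 and 190.5 CPM and a log2 fold change of -0.54. It was called without gemcitabine replicate 2 (-0.61). ADSL, adenylosuccinate lyase, which acts in this pathway and again on the way to AMP, had the smallest fold change of the 6 (-0.42), and in limma on log2(FPKM + 1) it did not pass (adjusted p = 0.0571). In that fit PPAT (-0.58) and GART (-0.53) were under the fold limit.

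The genes on either side of this pathway also passed the adjusted p in the lower direction. PRPS1 and PRPS2, the synthetases that supply PRPP, had log2 fold changes of -0.24 and -0.23 (adjusted p = 0.0149 and 0.0132 in edgeR). With library totals they were -0.13 and -0.12 and no longer passed (adjusted p = 0.16 and 0.126), nor did they without vehicle replicate 1 (adjusted p = 0.251 and 0.135) or vehicle replicate 2 (adjusted p = 0.076 and 0.151), and PRPS2 was at 0.0068 in limma on log2(FPKM + 1). The 4 genes that lead from IMP to AMP and GMP all passed the adjusted p and none was called at the fold of 1.5 (by edgeR or by DESeq2, with 4 also past an unadjusted p of 0.05), with a median of -0.45. IMPDH1 and IMPDH2, the rate-limiting dehydrogenases of guanine nucleotide synthesis, fell by 0.48 and 0.42 on the log2 scale. ADSS2, which commits IMP to AMP, fell by 0.49, and GMPS, which aminates XMP to GMP, fell by 0.36. In limma on log2(FPKM + 1) these 4 genes stayed below 0 and did not pass (adjusted p = 0.0893 for IMPDH1, 0.113 for IMPDH2, 0.103 for ADSS2 and 0.193 for GMPS).

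In purine salvage none of the 5 genes passed the adjusted p in edgeR or DESeq2, nor an unadjusted p of 0.05. The values ran from -0.099 to 0.069 with a median of -0.087. HPRT1, which salvages hypoxanthine and guanine, had 89.1 and 93.7 CPM with vehicle and 88.2 and 86.3 CPM with gemcitabine, a log2 fold change of -0.068 ± 0.068 (SE). APRT, the adenine salvage enzyme, stood at -0.087 ± 0.068 (SE) and ADK, adenosine kinase, at -0.093 ± 0.075 (SE). PNP, purine nucleoside phosphorylase, was at -0.099 ± 0.12 (SE), and DGUOK, the mitochondrial deoxyguanosine kinase, at 0.069 ± 0.098 (SE). The directions of the 4 negative values were not stable, since with scaling by library totals all 4 turned positive (0.012 to 0.043). The difference between the salvage genes and those of the IMP pathway was not tested as such.

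In the pyrimidine pathway, the genes of the early steps fell most. DHODH, the mitochondrial dehydrogenase that makes orotate and is linked to the respiratory chain, had 18.5 and 18.2 CPM with vehicle and 9.87 and 8.37 CPM with gemcitabine. In fragments these were 269 and 277 against 137 and 114, so both treated libraries were far below both controls, and the fitted level fell by 50.2%. Its log2 fold change, -1.01 ± 0.13 (SE, adjusted p = 3.13e-05), was the most negative of the 37, and its SE was the largest of the 7 called genes. CAD, the trifunctional enzyme of the first 3 steps, had 196.3 and 198.9 CPM with vehicle against 112.6 and 118.1 CPM with gemcitabine. The groups lay well apart, at a log2 fold change of -0.78 ± 0.066 (SE, adjusted p = 8.31e-07).

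The later steps changed less. UMPS, which turns orotate into UMP, had 64.6 and 69.0 CPM against 63.5 and 60.4 CPM and a log2 fold change of -0.11 ± 0.074 (SE), which did not pass the test (adjusted p = 0.269, edgeR). Cuffdiff marked UMPS as failed in 1 library. CTPS1 and CTPS2, which make CTP from UTP, fell by 0.32 and 0.20 (adjusted p = 0.00123 and 0.0336, edgeR), so 4 of the 5 genes of this route passed in the lower direction, against 3 with DESeq2. CTPS2 also did not pass with library totals (-0.090), without a filter on low counts (adjusted p = 0.0559), or without vehicle replicate 1 (adjusted p = 0.271), vehicle replicate 2 (adjusted p = 0.14) or gemcitabine replicate 1 (adjusted p = 0.0677). CTPS1 narrowly failed without vehicle replicate 1 or 2 (adjusted p = 0.0557 and 0.0534).

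Among pyrimidine salvage and nucleotide kinase genes, 2 of 5 fell by the adjusted p and UCK2 was the 1 called. UCK2 phosphorylates uridine and cytidine and had 217.4 and 203.4 CPM with vehicle against 115.7 and 120.3 CPM with gemcitabine. Its log2 fold change was -0.83 ± 0.068 (SE, adjusted p = 5.97e-07). UCK1, its paralogue with the same reaction, had 51.1 and 46.7 CPM against 51.5 and 53.3 CPM, a log2 fold change of 0.10 ± 0.079 (SE, adjusted p = 0.343), so both treated libraries lay slightly above both vehicle libraries. NME1, a nucleoside diphosphate kinase, fell by 0.34 (adjusted p = 0.00201, edgeR), but did not pass without vehicle replicate 1 (adjusted p = 0.1) or 2 (adjusted p = 0.0561). NME2 and CMPK1, the UMP/CMP kinase that also acts on gemcitabine monophosphate, were at -0.14 and -0.17 and did not pass (adjusted p = 0.146 and 0.0602, edgeR). NME1 and NME2 both lie within a readthrough gene, NME1-NME2, and their counts are fractions, so how the reads were split between them is uncertain.

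Among the genes of thymidine nucleotide supply were the 3 that rose. Of these 5 genes 3 rose by the adjusted p, 0 fell and 0 were called, with a median of 0.23. TK1, the cytosolic thymidine kinase of S phase cells, had 162.8 and 147.8 CPM with vehicle and 217.0 and 218.5 CPM with gemcitabine. The 2 treated values were nearly equal and above both controls, at a log2 fold change of 0.49 ± 0.069 (SE, adjusted p = 7.29e-05), short of the fold of 1.5. TYMS, thymidylate synthase, had 159.6 and 150.0 CPM against 186.2 and 176.7 CPM, a log2 fold change of 0.23 ± 0.068 (SE, adjusted p = 0.0151). ENOSF1 is annotated over TYMS on the opposite strand. The called genes GART (SON), PFAS (CTC1) and UCK2 (TMCO1) also have a gene annotated over them on the opposite strand. So do CTPS2, UCK1, SHMT1, SHMT2, MTHFD1 and MTHFD2. On the same strand, SGSM3 is annotated over ADSL and a gene without a symbol here over TK2, besides NME1-NME2. The strand setting of the counting is not given in the sources used here, and the effect of these overlaps on the counts was not tested. TK2, the mitochondrial thymidine kinase, had 13.6 and 12.5 CPM against 19.9 and 16.8 CPM, a log2 fold change of 0.50 ± 0.13 (SE, adjusted p = 0.00588). Its counts were fractions in all 4 libraries, and its FPKM overlapped between conditions (11.8 and 9.10 against 14.8 and 9.44). TK2 was called without gemcitabine replicate 2 (0.61) but did not pass the adjusted p without vehicle replicate 1 (0.0625) or 2 (0.119), nor in limma on log2(FPKM + 1), at 0.18 (adjusted p = 0.644). TYMS did not pass without vehicle replicate 1 (adjusted p = 0.0857) or 2 (adjusted p = 0.207), nor in that limma fit (adjusted p = 0.0562). With library totals TK1 (0.60) and TK2 (0.61) were both called higher, and TK1 passed whichever library was left out.

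DTYMK, the kinase that follows thymidylate synthesis, overlapped between conditions, with 88.9 and 84.4 CPM against 102.5 and 86.7 CPM. DUT, which clears dUTP and yields the substrate of TYMS, had 186.2 and 182.4 CPM against 167.4 and 178.7 CPM. Neither passed the test, at 0.13 (adjusted p = 0.237, edgeR) and -0.091 (adjusted p = 0.306). Within each library the ratio of TK1 to PPAT fragments, which no scaling of libraries can alter, was 2.34 and 2.04 with vehicle and 5.25 and 5.27 with gemcitabine. These 2 genes were put together after their values had been seen, so the ratio is a description of how far apart they moved.

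**Figure D3:**
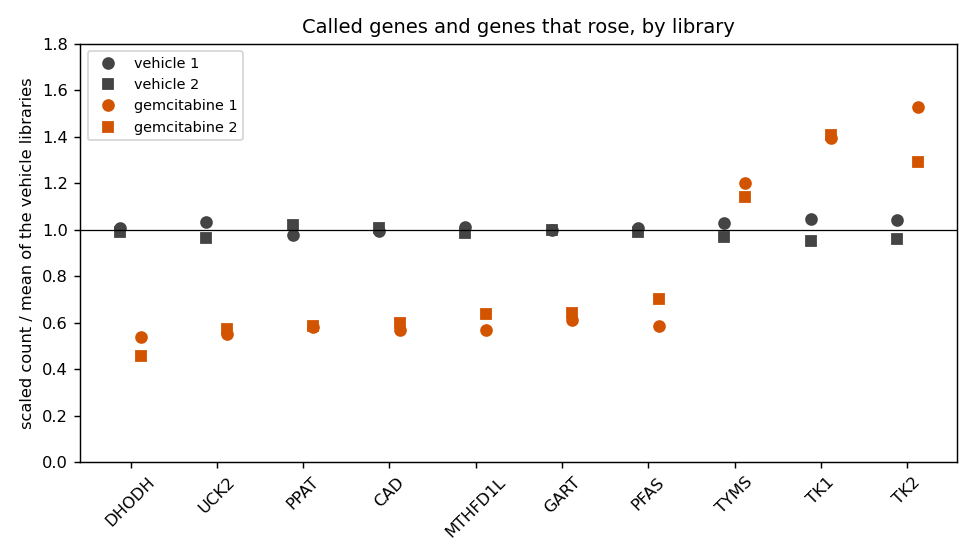
Scaled count in each library divided by the mean of the 2 vehicle libraries (y axis, starting at 0) for the 7 called genes, from the largest fall, and the 3 genes that rose. Circles and squares are the 2 libraries of a condition, grey for vehicle and orange for gemcitabine. The gemcitabine points of the 7 called genes all lie below the vehicle points and those of TYMS, TK1 and TK2 all lie above.

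The folate enzymes were led by MTHFD1L, the mitochondrial enzyme that releases formate, which supplies carbon for the purine ring. It had 234.7 and 228.7 CPM with vehicle and 131.4 and 147.7 CPM with gemcitabine. The log2 fold change was -0.73 ± 0.072 (SE, adjusted p = 2.93e-06), with no overlap. In limma on log2(FPKM + 1) it was -0.41 (adjusted p = 0.0649) and not called. MTHFD1, the cytosolic enzyme that takes up formate, fell by 0.25 (adjusted p = 0.0141, edgeR), but did not pass with DESeq2, with library totals (adjusted p = 0.125) or without vehicle replicate 1 (adjusted p = 0.225) or 2 (adjusted p = 0.0638). MTHFD2, the mitochondrial dehydrogenase one step before MTHFD1L, did not pass, at -0.14 ± 0.076 (SE, adjusted p = 0.151). SHMT2 and SHMT1, which take a carbon from serine in mitochondria and cytosol, were at -0.16 and 0.11 and did not pass either (adjusted p = 0.0828 and 0.244, edgeR). So 2 of these 5 genes fell by the adjusted p and 1 was called.

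Related enzymes were set side by side as ratios of fragment counts within a library. UCK2 over UCK1 was 4.25 and 4.36 with vehicle and 2.25 and 2.26 with gemcitabine, the widest separation of the 8 pairs. MTHFD1L over MTHFD2 went from 4.61 and 4.54 to 2.89 and 3.20, and SHMT2 over SHMT1 from 2.92 and 2.91 to 2.40 and 2.45. NME1 over NME2 was 0.931 and 0.986 with vehicle and 0.851 and 0.814 with gemcitabine. CTPS1 over CTPS2 was also lower in both treated libraries, by 0.12 on the log2 scale. In contrast, IMPDH2 over IMPDH1 was 1.52 and 1.46 with vehicle and 1.53 and 1.57 with gemcitabine, a shift of 0.061 on the log2 scale, and both genes fell. The ratios of PRPS2 to PRPS1 and of TK1 to TK2 overlapped between conditions. With 2 libraries against 2, an exact permutation test of a ratio cannot go below p = 0.333, and no other test of the ratios was made.

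**Figure D4:**
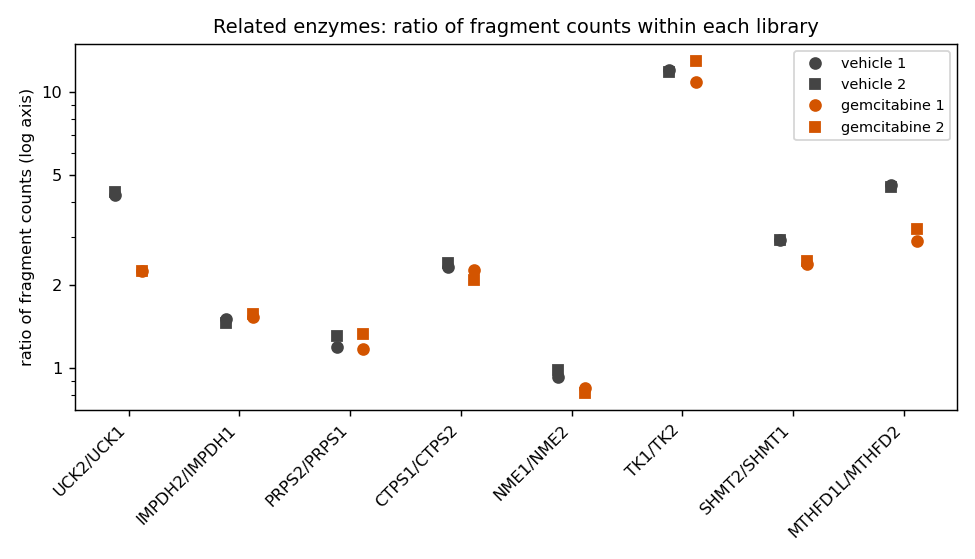
Ratio of the fragment counts of 2 related enzymes within each library (y axis, log scale) for 8 pairs, with circles and squares for the 2 libraries of a condition. UCK2/UCK1 drops from above 4 to about 2.25, MTHFD1L/MTHFD2 and SHMT2/SHMT1 drop by less, and PRPS2/PRPS1 and TK1/TK2 overlap.

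By level per transcript length (FPKM, as deposited), these genes were well expressed. Their mean vehicle FPKM ran from 10.4 to 377 with a median of 81.6, where the median of the 14105 genes with a mean of at least 0.1 FPKM was 13.5. NME2 had the highest level, 377 ± 38 FPKM (SD, n = 2) with vehicle, and TK2 the lowest, 10.4 ± 1.9 FPKM (SD, n = 2), with DHODH next to it at 13.2 ± 0.039 FPKM (SD, n = 2). The called genes were spread over this range. MTHFD1L stood at 199 ± 9.3 FPKM (SD, n = 2) with vehicle and 150 ± 19 with gemcitabine, and UCK2 at 104 ± 5.6 and 61.2 ± 2.1. GART had 95.3 ± 1.7 and 65.7 ± 1.2 FPKM, and CAD 56.0 ± 6.9 and 34.2 ± 2.5 FPKM. PFAS had 46.6 ± 7.8 and 30.01 ± 0.33 FPKM, PPAT 26.7 ± 2.3 and 17.4 ± 1.5 FPKM, and DHODH fell to 6.85 ± 0.24 FPKM. Summed over the 6 genes to IMP, the level was 711 and 689 FPKM with vehicle and 516 and 533 FPKM with gemcitabine. PAICS, marked failed in all 4 libraries, is part of this sum, with means of 152 FPKM with vehicle and 121 FPKM with gemcitabine. Summed over the 5 genes of thymidine supply it was 766 and 719 FPKM with vehicle and 965 and 892 FPKM with gemcitabine, so these sums moved in opposite directions. The largest term of the second sum, DUT, went from 317 to 347 FPKM while its count-based fold change was -0.091, and FPKM ratios lay above count-based fold changes by a median of 0.12 over the tested genes with at least 1 FPKM in both conditions.

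**Figure D5:**
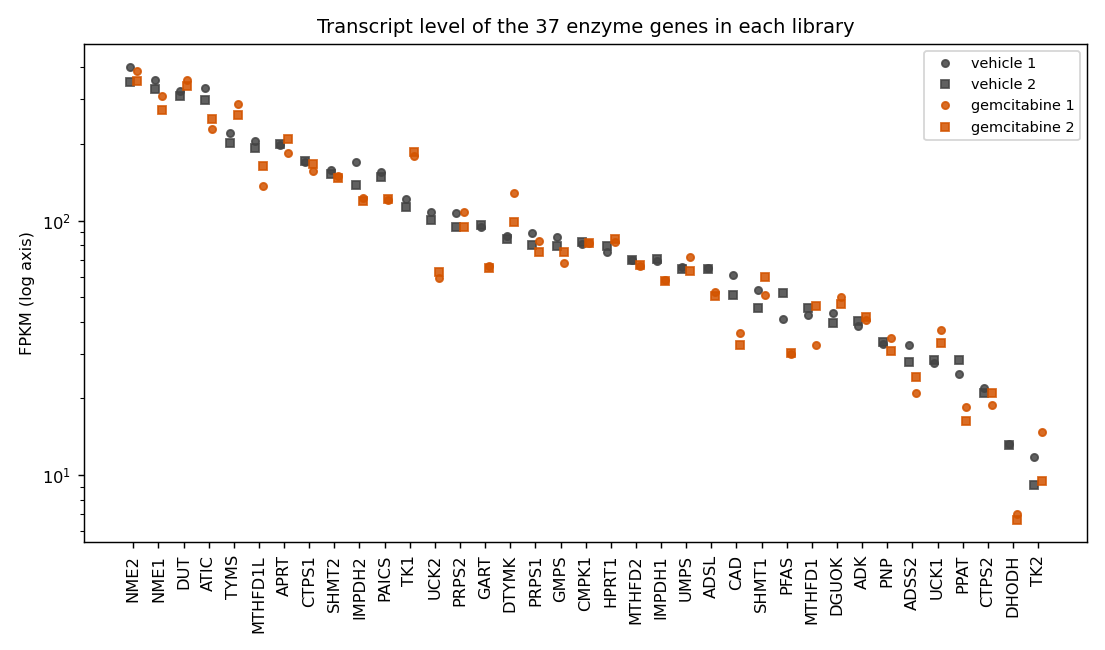
FPKM of each of the 37 genes in each library (y axis, log scale), ordered by the vehicle mean, with grey for vehicle and orange for gemcitabine and circles and squares for the 2 libraries of a condition. The orange points lie below the grey ones for UCK2, GART, CAD, PPAT and DHODH and above them for TK1 and TYMS.

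Of 52 further genes of nucleotide and folate metabolism listed beside these, 51 were tested and CMPK2 was under the minimum count. By edgeR, 2 were called lower and 5 higher, where 4.43% and 5.69% of all tested genes were called lower and higher. By the adjusted p 13 fell and 14 rose, against 20% of all tested genes that fell and 18.5% that rose. The log2 fold changes of the 51 genes had a median of -0.0013, against 0.0068 for all genes. The called genes that fell were MTRR, which keeps methionine synthase active (-0.62), and DCTPP1, which hydrolyses dCTP and related nucleotides (-0.79). Those that rose included AMT of the glycine cleavage system (1.39), CDA of the 15 tested kinase and salvage genes and NT5E and AMPD3 of the 10 catabolism genes, of which 2 also fell by the adjusted p. CDA, cytidine deaminase, which also inactivates gemcitabine, had 17.7 and 17.1 CPM with vehicle and 31.9 and 32.1 CPM with gemcitabine, a log2 fold change of 0.88 ± 0.096 (SE, adjusted p = 7.1e-06). NT5E, which dephosphorylates AMP outside the cell, rose by 1.25 (adjusted p = 7.13e-06) and AMPD3, an AMP deaminase, by 0.71 (adjusted p = 0.0227). AMT was scarce, at 0.619 to 2.31 CPM in the 4 libraries.

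Open chromatin at the starts of the 37 genes was compared between 1 library and 1 library, so these are counts without a test. In hg19, 17 of the 37 genes had a DNaseI peak within 500 bases of an annotated start with vehicle, or 45.9% (95% Wilson interval 31.0 to 61.6, for counting error only). With gemcitabine it was again 17, and 14 genes (37.8%) had one in both libraries. Among tested genes with at least the lowest FPKM of the 37, the shares were 37.0% with vehicle, 41.7% with gemcitabine and 28.2% in both. IMPDH2, APRT and MTHFD2 had a peak with vehicle alone and CTPS1, CMPK1 and TK2 with gemcitabine alone. Each of these was 8.11% of the 37, against 8.78% with vehicle alone and 13.5% with gemcitabine alone among tested genes of that FPKM. The MTHFD2 peak lay at a further start inside the gene. The CMPK1 and APRT peaks scored 50.71 and 51.54, near the lowest score of 50. The others scored 57.0 (TK2), 59.58 (IMPDH2), 73.68 (CTPS1) and 85.01 (MTHFD2). The libraries had 9606 and 10695 peaks in all, and a missing peak in such lists does not show closed chromatin.

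Of the 7 called genes, PPAT, PFAS and DHODH had a peak in both libraries, and GART, CAD, UCK2 and MTHFD1L had none in either. PFAS had 2 peaks with vehicle and 1 with gemcitabine, and the highest-scoring ones did not overlap. They were chr17:8152065-8152868 with vehicle and chr17:8150896-8151690 with gemcitabine. The place of the lower-scoring vehicle peak was not compared, so these 2 peaks do not show that the open site moved. The PPAT and DHODH E-boxes printed above lay inside peaks of both libraries, as did those of ATIC and MTHFD1, whereas that of MTHFD1L did not. Of the E2F stretches, that of TK1 was inside a peak in both libraries, and those of TYMS and DUT were not. The TK1 peak spanned chr17:76182867-76183805 with vehicle (score 179.68) and chr17:76182810-76183860 with gemcitabine (score 125.67), while its transcript count rose. The score is -10 times the log10 of the MACS p-value and depends on the depth of a library.

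PPAT and PAICS start back to back on chromosome 4 and shared a single peak. It covered chr4:57301623-57302558 with vehicle (score 129.14) and chr4:57300215-57302711 with gemcitabine (score 111.98). Both genes fell, by 0.78 and 0.54 on the log2 scale. The 125 bases between their hg19 starts (chr4:57301782-57301906, plus strand) are shown because they are the shared upstream sequence of 2 enzymes of 1 pathway.
Between PPAT and PAICS: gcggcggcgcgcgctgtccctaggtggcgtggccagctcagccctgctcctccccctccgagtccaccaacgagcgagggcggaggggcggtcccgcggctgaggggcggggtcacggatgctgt
This stretch is 76.0% G and C and holds 0 matches of the E-box, the E2F core or the CCAAT box, and the shared E-box lies beyond it on the PAICS side.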

How the data were processed

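The 37 genes, the further pathway genes, the markers and the motifs were chosen with earlier results of these data known. Per the labels and methods, mRNA libraries of 2 biological replicates a condition were sequenced as single-end reads. The authors aligned them to hg19 with TopHat2 2.0.8 and ran Cuffdiff 2.0.2 (versions also in the submitters' processing notes) with protein-coding annotations from Gencode 15 and a limit of 10 reads. The deposited table holds estimated counts (fragments assigned to a gene in a library) and FPKM for each library. Fragments that fit several genes are split, so 8 of the 37 genes have counts that are not whole (within 1e-06), and 275 genes are marked failed in at least 1 library. Which library index of the table belongs to which labelled replicate is not known, and replicate 1 and 2 here are names only. The authors called DNaseI peaks with MACS at p = 1e-05 in each condition, and the deposited score is -10 times log10 of that p-value.

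Estimated counts were rounded and tested with edgeR 4.0.16 in R 4.3.3 (TMM scaling, quasi-likelihood test, no covariate) on the 14854 genes whose 4 libraries summed to 10 fragments or more. Benjamini-Hochberg adjustment ran over all of them, and the study's 4 criteria for a call were kept although Cuffdiff itself was not rerun. Each standard error is the log2 fold change divided by the root of F. On counts simulated from these libraries (14716 genes, 198 changed) edgeR recovered 90.9% with 5.76% of its calls false. Recovery was counted over the 198 genes together, and was not tested separately for fold changes of the sizes reported here. In the data 5725 of the 14854 tested genes passed the adjusted p, and recovery with that many changed genes was not tested. Names came from Ensembl IDs for 19619 genes. Values in every library were given for called genes and the 8 largest changes; those of genes that rose, and of some others for contrast, were added after their values were seen. Not every called gene of the further list is reported here. Starts came from a later Gencode release (44) carried over to hg19, and promoter windows from RefSeq on GRCh38.p14; no window was held for 3 of the 37 genes. Chi-square per gene between replicates was 2.17 for vehicle and 5.16 for gemcitabine, so no libraries were duplicates. The alternatives were DESeq2 1.42.0, other scaling and filters, limma 3.58.1 on log2(FPKM + 1) or log2(FPKM + 0.1), other call limits, a library left out, a replicate block, and other peak limits.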

Additional observations from a re-analysis of the deposited data

How the results depend on the processing

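Of the 37 genes' fold changes under 13 alternatives (481 values), 380 kept their direction and their side of the adjusted p of 0.05, 72 kept the direction but no longer passed it (48 of them with FPKM values), 7 newly passed and 22 reversed, in 7 genes. Of the 380, 12 gained or lost a call through the fold or FPKM limits. None of those reversed had an adjusted p under 0.05 under its alternative. Scaling by library totals moved the median of all genes to 0.1171 and that of the 37 to -0.1231. It gave 5 genes called lower, 2 called higher and 6 with adjusted p under 0.05 higher, with 24 genes below 0, and 417 of all genes called lower and 1164 higher. There HPRT1 (0.0427), APRT (0.0229), ADK (0.0168), PNP (0.0123), UMPS (0.0020) and DUT (0.0191) turned positive. In limma on log2(FPKM + 1), 4 were called lower and 1 higher (TK1), 8 and 1 passed the adjusted p, the median was -0.0772 and 326 of all genes were called lower and 894 higher. PRPS2 (0.0068), HPRT1 (0.1055), ADK (0.0706), UMPS (0.0523) and DUT (0.1298) reversed, with and without the filter. Without a filter on FPKM, limma called 0 genes of any kind, with 0 of the 37 past the adjusted p in either direction, although 4689 genes and 15 of the 37 had an unadjusted p under 0.05. With log2(FPKM + 0.1), 5 were called lower and 1 higher, 8 and 1 passed the adjusted p, the median was -0.0777 and 350 of all genes were called lower and 910 higher, with PRPS2 (0.0068), HPRT1 (0.1067), ADK (0.0722), UMPS (0.0529) and DUT (0.1301) reversed. The cause of these differences was not tested. The adjusted p alone gave 20 and 3 of the 37, and 2975 and 2750 of all genes. Leaving out 1 library, which leaves a lone library assumed to vary like the others, gave 6 to 8 called lower and 0 to 1 called higher. By the adjusted p it gave 14 to 22 lower and 1 to 4 higher, with only 1 higher without vehicle replicate 1 or 2. The median was then -0.24 to -0.17, and PNP ran from -0.2218 without gemcitabine replicate 1 to 0.0171, reversed, without gemcitabine replicate 2. All genes called were then 594 to 771 lower and 674 to 923 higher. CAD, DHODH and UCK2 were called in each alternative fit except limma without a filter. With a replicate block on the library index, 7 were called lower and 0 higher, the same genes as without it, 20 and 3 passed the adjusted p, the median was -0.23, and 661 and 844 of all genes were called. Same-index libraries deviated with a correlation of -0.0528 over 10010 genes, so the index gave no sign of pairing. At a peak score of at least 100, 7 genes had a peak at a start with vehicle and 7 with gemcitabine.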

Other observations

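Deposited FPKM and fragment counts did not give the same fold changes for these genes. The log2 ratio of mean FPKM was above the count-based log2 fold change by a median of 0.13 over the 37 genes (-0.28 to 0.32) and by 0.12 over the 11639 tested genes with a mean of at least 1 FPKM in both conditions. The sign differed for 5 of the 37. MTHFD1 had 32.5 and 46.3 FPKM in the gemcitabine libraries, at 901 and 937 fragments. DCK, the kinase that activates gemcitabine, had 32.7 and 21.0 FPKM with vehicle and 45.2 and 91.2 FPKM with gemcitabine, whereas its fragment counts were 766 and 873 with vehicle and 764 and 748 with gemcitabine. The count-based log2 fold change of DCK was -0.0013 ± 0.077 (SE, adjusted p = 0.991, edgeR). Its counts were fractions in all 4 libraries, and how its fragments were shared between isoforms was not analysed here.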
